A study of Mus musculus with 4 samples.

Results

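The pericyte genes described here are Pdgfrb, Cspg4, Rgs5, Notch3, Kcnj8, Abcc9, Heg1 and Postn, 8 of 21887 protein-coding genes, taken from a list of pericyte genes that was drawn up with earlier results of these data known. For each gene, ATAC-seq peaks were counted from 100 kb before to 100 kb after it. Kcnj8 and Abcc9 lie side by side and were given 1 shared interval, so the 8 genes had 7 intervals covering 1818 kb. These intervals held 210, 311, 372 and 334 peaks in replicates 1, 2, 3 and 4, of 134503, 186199, 211678 and 192842 peaks in all. That was 0.168% ± 0.00873 of a library's peaks (SD, n = 4). The tissue was whole lung of wild-type mouse embryos at E15.5, snap-frozen before nuclei were extracted, with 60000 nuclei tagmented per sample. ATAC-seq marks open chromatin by the sites where Tn5 transposase can insert adapters, and the series concerns a lung gene programme driven by the transcription factor HOXA5. All 4 libraries belonged to 1 group, and no treated or mutant lung was analysed here, so there was no contrast between conditions. Whether each replicate was its own embryo or litter is not stated in the labels, so an SD here is the spread over these 4 libraries and may reflect technique alone.

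Pericytes are mural cells that sit on the outside of capillaries, within the vessel's basement membrane, and share a lineage and many genes with vascular smooth muscle. Endothelial cells secrete PDGF-B, and PDGF receptor beta on pericytes binds it, which recruits them to growing vessels. Notch signals from endothelium to mural cells act mainly through NOTCH3, while NG2, RGS5 and the ATP-sensitive potassium channel of Kir6.1 and SUR2 are widely used to recognise pericytes. Heg1 is better known from endothelium and endocardium, and Postn from fibroblasts and other mesenchyme, so neither is specific to pericytes. A peak in whole lung carries no cell type, and fewer cells of a type and less accessible chromatin per cell cannot be told apart.

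Replicate 1 stood apart from the other libraries. Its list was the shortest, its median fold enrichment was 8.99 against 3.73 to 3.90 in replicates 2 to 4, and its peaks covered 78.6 Mb against 140.7 to 162.1 Mb. The peaks of its list were named with "Frais", French for fresh, while the other lists used the word frozen, whereas the labels' protocol described snap-freezing for every sample. Many results that rest on this library are therefore also given without it or library by library. Fold enrichment is the authors' own value for each peak and was used here to rank peaks within a library and to recover pileups. A high percentile thus means that most peaks of that library had a lower fold, and a difference in percentile between libraries with lists of different length is not a change in openness.

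The promoters that show how the starts of these genes differ in sequence are printed here from RefSeq (build GRCm38.p6), running from 250 bases before to 50 bases after each annotated start, 5′ to 3′ on the gene's own strand, with every CG dinucleotide in capitals. Among the promoters of these genes, Notch3 and Cspg4 are shown as higher in CG dinucleotides, and Rgs5 and both Postn starts as lower. Kcnj8 and Abcc9 are shown as neighbours whose products join in 1 channel.
Notch3, chr17:32166841-32167140, minus strand: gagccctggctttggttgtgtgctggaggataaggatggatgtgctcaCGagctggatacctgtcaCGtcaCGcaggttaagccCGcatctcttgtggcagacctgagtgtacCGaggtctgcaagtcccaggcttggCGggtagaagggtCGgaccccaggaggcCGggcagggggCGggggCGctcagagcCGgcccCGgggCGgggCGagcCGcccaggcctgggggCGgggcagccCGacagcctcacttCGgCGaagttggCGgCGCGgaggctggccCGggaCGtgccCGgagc
Cspg4, chr9:56864854-56865153, plus strand: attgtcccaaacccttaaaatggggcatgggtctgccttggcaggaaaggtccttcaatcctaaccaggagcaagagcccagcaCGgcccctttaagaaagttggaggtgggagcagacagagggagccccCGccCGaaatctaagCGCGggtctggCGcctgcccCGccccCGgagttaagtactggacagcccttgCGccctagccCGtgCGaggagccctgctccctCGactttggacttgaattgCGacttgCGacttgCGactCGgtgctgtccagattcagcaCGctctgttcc
Kcnj8, chr6:142571565-142571864, minus strand: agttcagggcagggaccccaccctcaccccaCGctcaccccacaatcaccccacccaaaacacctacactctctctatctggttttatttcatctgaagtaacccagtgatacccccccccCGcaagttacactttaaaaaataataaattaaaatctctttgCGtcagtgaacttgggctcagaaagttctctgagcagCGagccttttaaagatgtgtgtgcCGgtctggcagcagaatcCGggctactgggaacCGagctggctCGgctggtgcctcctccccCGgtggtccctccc
Abcc9, chr6:142702225-142702524, minus strand: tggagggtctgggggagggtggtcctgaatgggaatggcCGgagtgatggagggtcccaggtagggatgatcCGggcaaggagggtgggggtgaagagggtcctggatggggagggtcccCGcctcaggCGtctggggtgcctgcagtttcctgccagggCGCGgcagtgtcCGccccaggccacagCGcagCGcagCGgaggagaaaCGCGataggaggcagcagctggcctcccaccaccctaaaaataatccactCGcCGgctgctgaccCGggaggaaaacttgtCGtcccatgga
Rgs5, chr1:169655251-169655550, plus strand: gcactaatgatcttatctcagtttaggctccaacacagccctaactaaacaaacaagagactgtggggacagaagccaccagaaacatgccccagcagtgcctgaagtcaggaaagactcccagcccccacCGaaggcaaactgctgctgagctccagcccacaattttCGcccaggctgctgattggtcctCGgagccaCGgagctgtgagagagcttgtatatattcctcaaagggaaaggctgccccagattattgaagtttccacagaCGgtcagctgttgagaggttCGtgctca
Postn start 1, chr3:54359017-54359316, plus strand: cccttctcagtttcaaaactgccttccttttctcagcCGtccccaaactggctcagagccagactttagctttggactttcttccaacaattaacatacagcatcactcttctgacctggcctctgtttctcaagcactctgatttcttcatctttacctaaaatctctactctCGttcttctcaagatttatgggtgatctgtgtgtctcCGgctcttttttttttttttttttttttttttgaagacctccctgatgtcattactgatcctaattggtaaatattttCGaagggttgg
Postn start 2, chr3:54360857-54361156, plus strand: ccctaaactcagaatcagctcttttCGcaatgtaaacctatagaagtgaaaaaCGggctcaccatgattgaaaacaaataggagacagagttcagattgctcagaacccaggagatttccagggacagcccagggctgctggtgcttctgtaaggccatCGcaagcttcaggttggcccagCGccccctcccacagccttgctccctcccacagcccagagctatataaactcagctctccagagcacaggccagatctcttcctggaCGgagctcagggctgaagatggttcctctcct
Notch3 held 25 CG dinucleotides in these 300 bases, Cspg4 17, Abcc9 16, Kcnj8 9, Rgs5 6, Postn start 2 held 5 and Postn start 1 held 4. Heg1, which is not printed, held 25.

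All 8 pericyte genes had a peak within 1 kb of an annotated gene end in every library, where 66.7% of all protein-coding genes did. Without replicate 1 the count could not fall below 8, because fewer libraries then had to hold a peak. The share of all genes was 70.4% there. Scored at annotated starts alone, 7 of the 7 genes with a start in the promoter table were open in every library, against 66.6% of the 17492 genes with such a start. The strength of these peaks was uneven. Pdgfrb, Notch3, Cspg4, Kcnj8 and Heg1 had gene-end peaks at the 83.3rd percentile of fold or above in each library, while Rgs5, Abcc9 and Postn lay at 80.5 or below in each.

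**Figure D1:**
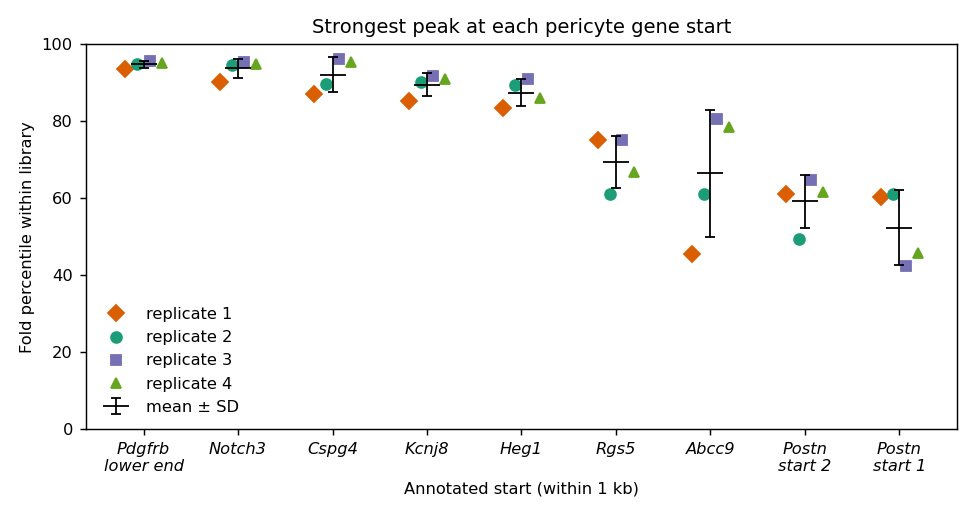
Fold percentile, within each library, of the strongest peak within 1 kb of each annotated start, with the lower-coordinate end used for Pdgfrb; points are the 4 libraries and bars the mean ± SD. The 5 genes on the left lie at 83.3 or above in every library, and the highest value to their right is 80.5, for Abcc9 in replicate 3. The Cspg4 values of replicates 3 and 4 belong to peaks with summits 3481 and 3405 bp inside the gene.

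Pdgfrb encodes the receptor tyrosine kinase through which PDGF-B recruits pericytes, and its surroundings were the most peak-rich of the 7 intervals. The gene lies at chr18:61045127-61085067 in build mm10. Its interval held 42, 75, 110 and 92 peaks in replicates 1 to 4, or 33.2 ± 12.1 per 100 kb (SD, n = 4). Replicate 1 had the fewest and replicate 3 the most. Ranked among all protein-coding genes by the same density, Pdgfrb stood at the 94.6th, 92.2nd, 99.2nd and 98.7th percentile in the 4 libraries, so its place near the top was alike in all of them.

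Peaks covered much of the Pdgfrb gene itself. The share of its bases under a peak was 23.8% in replicate 1 and 50.5%, 54.7% and 52.6% in replicates 2, 3 and 4, a mean of 45.4% ± 14.5. Replicate 1 lay far below the other libraries, which sat close together. The strongest region of the interval was inside the gene, at chr18:61052497-61062249, and its summits lay 9.52 kb from the lower end. It was 9753 bp wide after merging, ranked at 98.3, 97.5, 96.8 and 98.1 in replicates 1 to 4, and its summits in the 4 libraries fell within 23 bp of each other. The summit pileup, the number of reads or fragments stacked at the highest point, was 496 in replicate 1 and 131, 88 and 121 in the others.

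The lower end of Pdgfrb carried another wide region, chr18:61040741-61048214, which also covered the end of the neighbouring gene Gm52351. Its peak ranked at 93.4, 94.8, 95.6 and 95.02, a mean of 94.7 ± 0.93, with summits 1, 10, 42 and 20 bp inside the gene. This was the steadiest gene-end rank of the 8 genes. At the upper end replicate 1 had no peak within 1 kb, and replicates 2 to 4 had peaks at 61.2, 79.0 and 76.4. In the whole interval 25 of 114 merged regions were open in all 4 libraries, and 45 were open in replicates 2 to 4, so the count rested on replicate 1 by more than 1.5 times. Of the 25 regions, 4 lay inside Pdgfrb, 1 at its end, and 14 inside other genes.

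Notch3 encodes the Notch receptor of mural cells, which signals through the DNA-binding protein RBPJ. The gene lies at chr17:32120820-32166896 on the minus strand. Its interval held 32, 53, 65 and 57 peaks, or 21.03 ± 5.72 per 100 kb, with replicate 1 below the rest. Its start peak ranked at 90.1, 94.6, 95.2 and 94.8, a mean of 93.7 ± 2.39. Counted from the start, with negative values before it, summits lay at -13, -28 and -170 bp in replicates 1, 2 and 3 but at 824 bp in replicate 4. The merged region there, chr17:32160744-32168759, was 8016 bp wide.

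A region of like width, 8382 bp at chr17:32111606-32119987, lay just beyond the other end of Notch3 and ranked at 92.7 ± 2.00. It covered the starts of the non-coding genes Gm30729 and Gm38585. The region of highest mean rank in the Notch3 interval lay between genes, 27.8 kb from Notch3 at chr17:32089721-32093016. It ranked at 89.98, 95.6, 96.3 and 94.8, and its summits fell within 42 bp. Its mean of 94.2 ± 2.86 differed from that of the Notch3 start region, 93.7 ± 2.41, by less than the spread between libraries. Inside the gene 2 regions were open in all 4 libraries, and peaks covered 11.4%, 18.5%, 24.7% and 26.7% of the gene. That was less than the cover of Pdgfrb in every library.

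Cspg4 encodes NG2, a large surface proteoglycan of pericytes that is also found on other immature mesenchymal and glial cells. The gene lies at chr9:56865104-56899870 on the plus strand. Its interval held 32, 54, 59 and 55 peaks, or 21.3 ± 5.19 per 100 kb, and replicate 1 was again the lowest. The share of the gene under peaks was 22.3% in replicate 1 and 58.1%, 79.3% and 86.8% in replicates 2, 3 and 4. This mean, 61.6% ± 28.9, was the highest of the 8 genes, although its spread overlapped that of Pdgfrb. It placed Cspg4 at the 92.1st percentile of all genes for cover.

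The cover of Cspg4 came from a few very wide regions. One of 9848 bp, chr9:56862688-56872535, began before the start and ran into the gene. Others of 9300 and 6185 bp followed at chr9:56878928-56888227 and chr9:56888450-56894634, and ranked at 93.9 ± 2.28 and 88.6 ± 7.36. The start peak ranked at 86.96, 89.7, 96.2 and 95.4. Its summit lay at -97 and -15 bp from the start in replicates 1 and 2, but at 3481 and 3405 bp in replicates 3 and 4, where single peaks of 6374 and 9848 bp spanned the start. The ranks in replicates 3 and 4 therefore belong to a summit inside the gene and not to the start. The strongest region of the interval, at 98.1 ± 0.40, lay 50.7 kb away at a start of Snupn, a nuclear import gene.

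Rgs5 encodes a regulator of G-protein signalling that is among the most used pericyte markers. The gene lies at chr1:169655501-169695813 on the plus strand. Its interval was sparse, with 16, 11, 9 and 9 peaks, or 4.68 ± 1.37 per 100 kb. Here replicate 1 had the most peaks. Of 22 merged regions only 2 were open in all 4 libraries, and 4 were open without replicate 1, as also without replicate 4.

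Both shared regions near Rgs5 were of middling rank. The region at its own start, chr1:169653319-169655877, was the strongest of the interval at 74.99, 65.2, 75.02 and 66.7. The highest summits of the 4 libraries in this region were scattered over 1612 bp. For the strongest peak touching the window of 1 kb around the start, the summit lay at -133, -49, -497 and -1182 bp. The other, chr1:169703713-169704957, lay 7.9 kb beyond the gene at 58.0 ± 5.87. No region inside Rgs5 was open in all 4 libraries, and peaks covered 8.44%, 5.45%, 2.35% and 4.46% of the gene.

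Kcnj8 and Abcc9 encode Kir6.1, the pore, and SUR2, the regulatory subunit, of the vascular ATP-sensitive potassium channel. They lie at chr6:142564837-142571614 and chr6:142587862-142702766, both on the minus strand. Their shared interval held 46, 63, 53 and 59 peaks, or 16.3 ± 2.19 per 100 kb, which was the smallest relative spread of the 7 intervals. It had 28 regions open in all 4 libraries, and 14 of these lay between genes. It is also the longest interval, at 337.93 kb, and without replicate 1 it had 35 regions, fewer than the 45 around Pdgfrb.

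The starts of these channel genes differed. The Kcnj8 start peak ranked at 85.3, 90.2, 91.7 and 90.8, and its summit lay 180, 246, 199 and 100 bp after the start. The Abcc9 start peak ranked at 45.5, 61.2, 80.5 and 78.4, below Kcnj8 in each library, with a mean of 66.4 ± 16.4, or 73.4 without replicate 1. Its summit lay at -36, -261, -78 and -142 bp from the start. Abcc9 is 114.9 kb long and held 3 regions open in all 4 libraries inside it, of mean percentile 45.9, 58.4 and 48.98, while peaks covered 2.84% ± 0.769 of its length.

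The strongest regions of the channel interval were not at either gene. Over 4 libraries the highest mean was at the start of Ldhb, a lactate dehydrogenase gene 54.6 kb away, at 95.7 ± 2.02, and at 96.7 without replicate 1. The strongest away from gene ends, chr6:142770703-142771083, lay inside Cmas, which encodes an enzyme of sialic acid metabolism, 67.9 kb from Abcc9. It was only 381 bp wide and its 4 summits fell within 9 bp. It ranked at 77.1 in replicate 1 and at 98.4, 98.9 and 98.8 in replicates 2, 3 and 4, with pileups of 66, 170, 165 and 151. Its mean of 93.3 ± 10.8 was 98.7 without replicate 1, above that of the Ldhb start, so which of these regions ranked highest rested on replicate 1. Pileup here was lowest in replicate 1, whereas each other region named as strongest in an interval, or strongest away from gene ends, had its highest pileup in replicate 1.

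Heg1 encodes a transmembrane protein that anchors the KRIT1 and CCM2 complex at endothelial junctions and is required for heart and vessel integrity. The gene lies at chr16:33684384-33771576 on the plus strand. Its interval held 28, 47, 67 and 52 peaks, or 16.9 ± 5.60 per 100 kb, with replicate 1 the lowest. The start peak ranked at 83.3, 89.4, 90.9 and 86.0, and the summits lay at -13, 3, 15 and 16 bp from the start. No other start among these genes was as sharply placed in every library.

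Inside Heg1 4 regions were open in all 4 libraries, of which the highest ranked at 84.4 ± 2.64. A region between genes, chr16:33673170-33674107, 10.3 kb before the gene, ranked above the start at 90.06 ± 1.22, a gap within the spread between libraries. The strongest region of the interval lay 98.5 kb away inside Slc12a8 at 94.5 ± 0.40. It is close to the edge of the interval and would be missed with a reach of 50 kb.

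Postn encodes periostin, a secreted matrix protein of mesenchyme. The gene lies at chr3:54359267-54391041 on the plus strand and has 2 annotated starts in the promoter table. Its interval held 14, 8, 9 and 10 peaks, or 4.42 ± 1.13 per 100 kb, with replicate 1 the highest. All 6 regions open in all 4 libraries were also the only ones open in replicates 2 to 4.

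The 2 Postn starts differed in how the peaks lay. At start 1 the peak ranked at 60.2, 61.2, 42.3 and 45.7, its summit lay at 617, -707, -530 and -128 bp from the start, and the start base itself was under a peak in replicate 1 alone. At start 2 the peak ranked at 61.1, 49.3, 64.6 and 61.5, its summit lay at -8, -26, -30 and -48 bp, and the start base was covered in all 4 libraries. The means, 52.3 ± 9.75 at start 1 and 59.1 ± 6.75 at start 2, differed by less than the spread between libraries, so placement and not rank set the starts apart. The strongest region of the Postn interval lay between genes, 86.6 kb beyond Postn at chr3:54477659-54478459. It ranked at 90.3, 83.0, 81.8 and 83.6, above both starts in every library, and pileup there was 160 in replicate 1 and 27, 22 and 22 in the others.

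**Figure D2:**
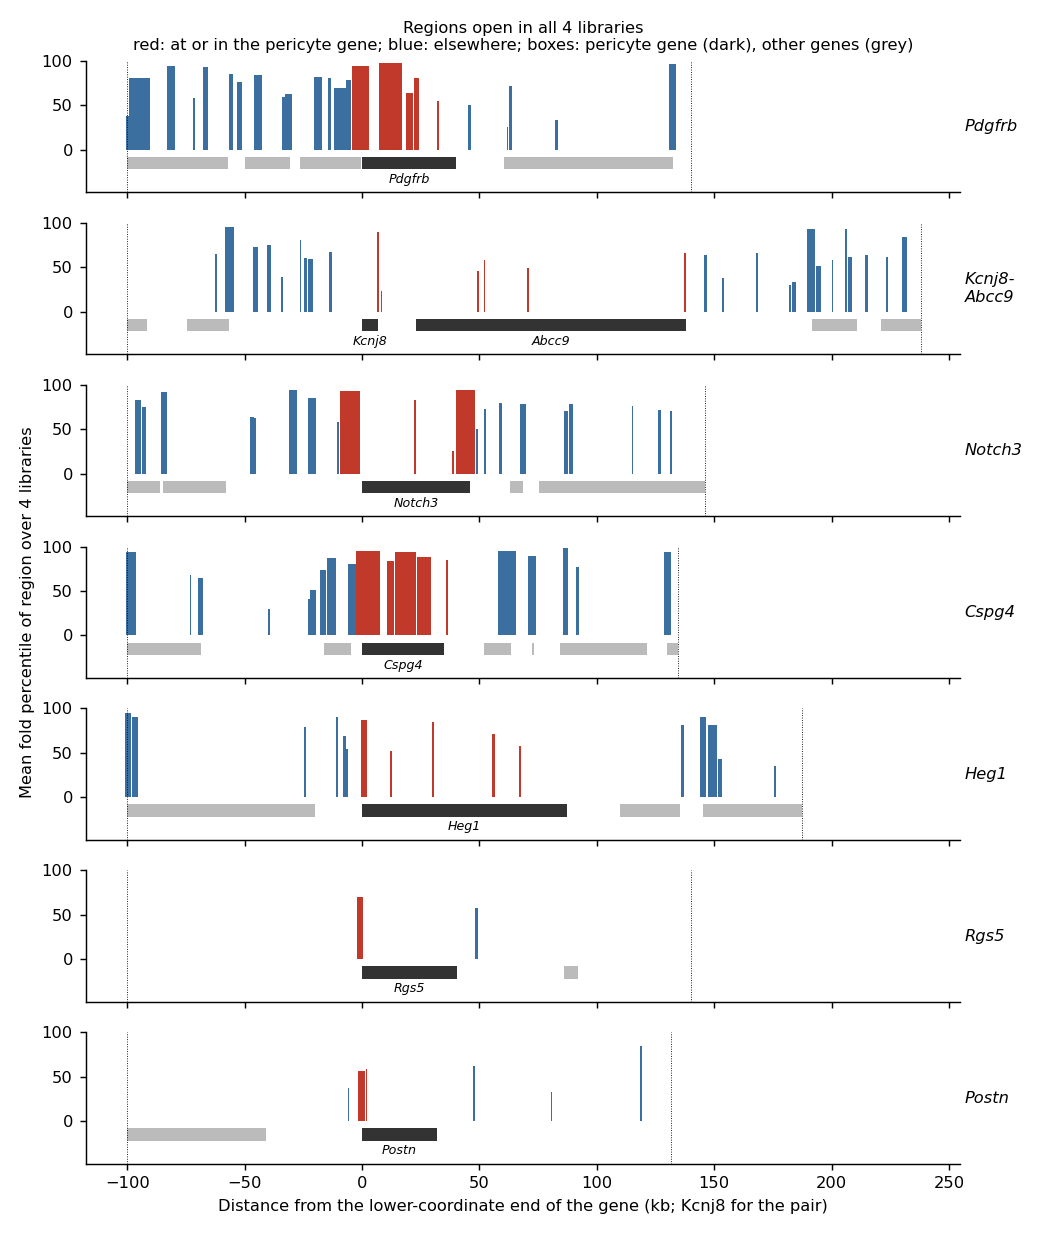
Regions open in all 4 libraries along the 7 intervals, by distance in kb from the lower-coordinate end of the gene (x axis) and mean fold percentile (y axis); bar width is region width, red marks regions at or in the pericyte gene, blue the rest, and dotted lines the interval ends. Wide red regions lie in the Pdgfrb and Cspg4 genes, whereas 2 regions appear around Rgs5 and 6 around Postn.

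Set side by side, the 7 intervals ranged between 33.2 peaks per 100 kb at Pdgfrb and 4.42 at Postn. Pdgfrb was followed by Cspg4 and Notch3, whose means of 21.3 and 21.03 differed by less than their spread. Heg1 at 16.9 and the channel pair at 16.3 were likewise within each other's spread, as were Rgs5 at 4.68 and Postn at 4.42. Between the channel pair and Rgs5 the counts of the libraries did not overlap. The lowest of the channel interval was 46 in 337.93 kb, and the highest of the Rgs5 interval was 16 in 240.3 kb. Taken gene by gene, the median of the 8 genes was 17.1 peaks per 100 kb, against 10.6 over all protein-coding genes, whose lower and upper quartiles were 4.18 and 19.6. In gene-wise values Kcnj8 and Abcc9 entered separately although their surroundings overlap, so peaks in the shared part counted for each. As percentiles among all genes, the means over libraries were 96.2 ± 3.37 for Pdgfrb, 79.8 ± 4.04 for Cspg4, 78.9 ± 2.77 for Notch3 and 72.02 ± 12.4 for Abcc9. Heg1 stood at 67.9 ± 2.88, Kcnj8 at 59.7 ± 14.8, Rgs5 at 29.99 ± 12.1 and Postn at 28.4 ± 10.3. Without replicate 1 Abcc9 averaged 66.7, Heg1 68.1 and Kcnj8 52.5, so the place of Abcc9 above Heg1 rested on that library. The median of the 8 percentiles, taken in each library, averaged 71.1 ± 7.58 (SD, n = 4).

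**Figure D3:**
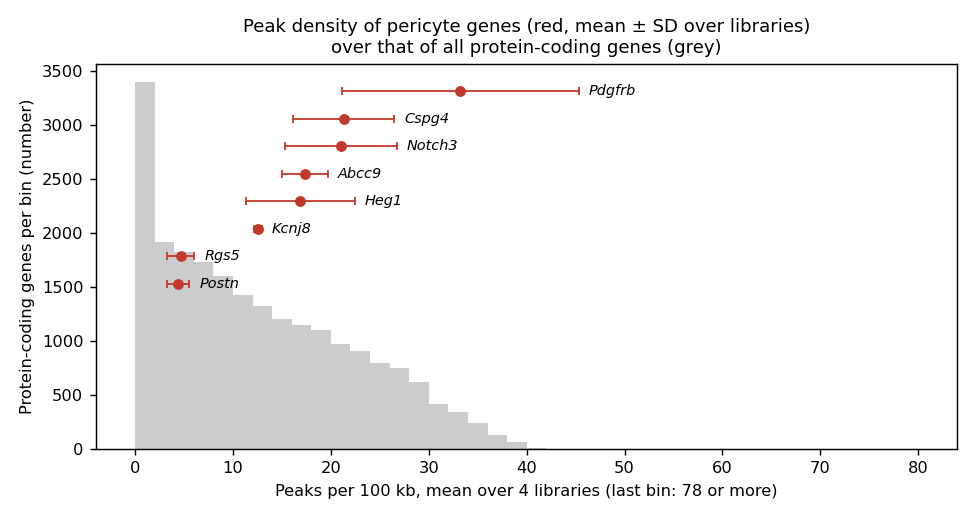
Histogram of peaks per 100 kb around all 21887 protein-coding genes (grey; x axis, mean over 4 libraries; y axis, number of genes), with the 8 pericyte genes in red as mean ± SD over libraries at arbitrary heights. Pdgfrb lies in the right tail at 33.2, and Rgs5 and Postn lie in the lower part at 4.68 and 4.42.

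Neighbouring genes add to these counts. The Pdgfrb interval holds 8 protein-coding genes in all, that of Cspg4 7, that of Rgs5 2 and that of Postn 2. Of the 117 regions open in all 4 libraries, 10 lay at an end of a pericyte gene, 17 elsewhere inside one, 16 at an end of another gene, 39 inside another gene and 35 between genes. Counting only peaks more than 2 kb from any gene end, a setting chosen after seeing the data, the genes stood at the 96.2nd percentile for Pdgfrb, 87.5th for Notch3, 81.2nd for Heg1 and 79.1st for Abcc9. Cspg4 stood at 77.2, Kcnj8 at 68.2, Postn at 33.2 and Rgs5 at 32.2. Rgs5 and Postn thus remained the lowest of the 8 on either scale.

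Regions of 5 kb or more were found in 3 of the intervals. Of the 117 shared regions 10 were that wide, or 8.55%, against 6.64% of the 66190 in the whole genome. The Pdgfrb interval held 4, the Cspg4 interval 4 and the Notch3 interval 2. Some of these wide regions were at other genes: inside Camk2a and at ends of Cdx1 and Gm52351 near Pdgfrb, and at an end of Snx33 near Cspg4. The median width was 1459 bp over the 117 regions and 1454 bp over the genome. In all, 117 of 477 merged regions in the intervals were shared by the 4 libraries (24.5%), against 66190 of 307572 in the genome (21.5%).

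**Figure D4:**
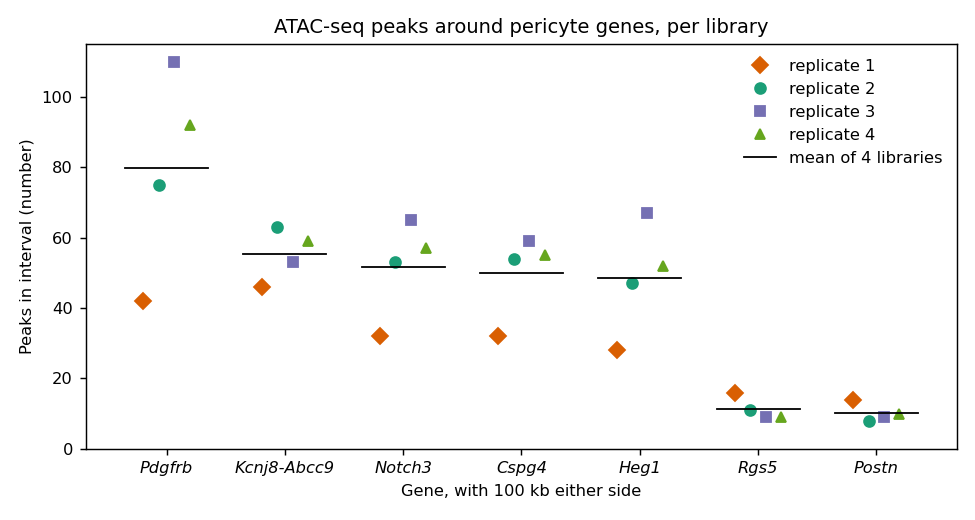
Number of peaks in each of the 7 intervals (y axis) for the 4 libraries, with the mean as a line. Replicate 1 has the fewest peaks in 5 intervals and the most around Rgs5, with 16, and Postn, with 14.

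Replicate 1 had fewer peaks than each other library around Pdgfrb, Cspg4, Notch3 and Heg1, and also in the shared channel interval, as it had around 71.8% of all protein-coding genes. Around Rgs5 and Postn it had more than each other library, which held for 6.07% of all genes. Merged regions found in replicate 1 alone made up 8 of 22 in the Rgs5 interval (36.4%) and 4 of 17 in the Postn interval (23.5%), against 29 of 477 in all 7 intervals (6.08%) and 8.85% of the genome. The reverse, regions found in replicates 2, 3 and 4 but not 1, made up 20 of 114 around Pdgfrb (17.5%), against 8.24% of the genome. Without replicate 1 the density of Rgs5 ranked at 24.0 and that of Postn at 23.3 among all genes, compared with 29.99 and 28.4 with it. Whether the state of the tissue had a part in these differences was not tested. Kcnj8 counted by itself had nearly the same number of peaks in each library, 26, 27, 25 and 26. It ranked at 81.3 in replicate 1 and at 56.5, 48.3 and 52.9 in the others. Its mean rank was 57.8 ± 16.0 with lists of equal length, beside 59.7 ± 14.8 with the full lists.

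The promoters of the pericyte genes were of middling CG content, from the 26.6th percentile of all promoters at Postn start 2 to the 62.7th at Heg1. The ratio of observed to expected CG dinucleotides was 0.716 for Heg1, 0.706 for Notch3 and 0.631 for Cspg4, in quartile 3 of 21263 promoters, whose median was 0.567. It was 0.519 for Abcc9, 0.45 for Kcnj8, 0.362 for Postn start 1, 0.294 for Rgs5 and 0.242 for Postn start 2, in quartile 2. In quartile 2, 56.2% of all starts had a peak within 1 kb in every library and 45.1% had the start base covered, against 94.2% and 89.9% in quartile 3. The outer quartiles, which hold none of these starts, had 16.4% and 9.16% (quartile 1) and 98.1% and 95.8% (quartile 4). All 5 pericyte starts in quartile 2 were open, and all but Postn start 1 had the start base covered. Over all 21263 starts the base was covered in 60% of cases, and in 7 of these 8.

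**Figure D5:**
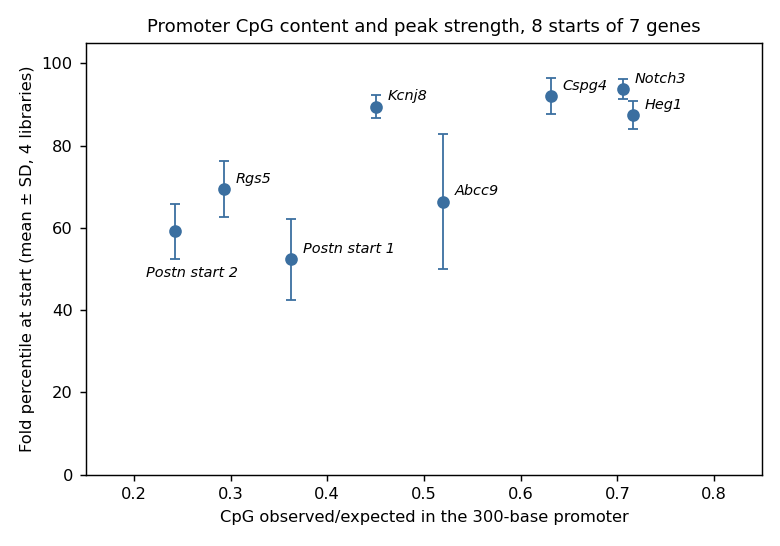
Mean fold percentile of the strongest start peak (y axis, ± SD over 4 libraries) against the observed/expected ratio of CG dinucleotides in the 300-base promoter (x axis) for 8 starts of 7 genes. The starts of Notch3, Heg1 and Cspg4, of highest ratio here, sit at 87.4 to 93.7, Kcnj8 reaches 89.5 at a ratio of 0.45, and the remaining starts lie at 69.5 or below. In replicates 3 and 4 the Cspg4 peak had its summit 3481 and 3405 bp inside the gene.

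Letter patterns bound by factors active in mural and other cells were searched on both strands of the 8 promoters. The CArG box of SRF was in 0 of the 8, against 1.52% of all promoters, the forkhead letters TGTTTAC in 0 (3.01%) and the AP-1 letters TGANTCA in 0 (6.99%). The RBPJ letters TGGGAA were in 3 of 8, those of Kcnj8, Abcc9 and Heg1, against 24.5% of all promoters, and were not in that of Notch3. The TEAD letters GGAATG occurred in 1, that of Abcc9 (13.6%), where they overlapped the RBPJ letters that begin at -221 bp. The E-box CANNTG was in 3 of 8, those of Rgs5, Kcnj8 and Abcc9, against 69.0%. The SP letters GGGCGG were in 4, those of Abcc9, Cspg4, Heg1 and Notch3, against 46.2%. The TATA letters TATAAA, added after the sequences had been seen, were in 1 of 8, Postn start 2, beginning at -26 bp, against 12.6% of all promoters. These are matches of letters in a window and say nothing of binding.

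Ligands, partners and targets of the 8 genes were open at a gene end in 17 of 18 cases, against 66.7% of all protein-coding genes, and in 18 without replicate 1, against 70.4%. The exception, the integrin gene Itgav, had such a peak in 3 libraries and was named after its values were seen. The highest gene-end ranks were those of Pdcd10 and Ccm2, members of the complex to which HEG1 binds, at 99.8 ± 0.06 and 99.0 ± 0.63. Such a rank is that of the strongest peak within 1 kb of either annotated end. It can therefore come from the far end of the gene or from a peak shared with a neighbouring gene. Hes1, a transcriptional repressor switched on by Notch, ranked at 98.9 ± 0.20 and had 30 regions open in all 4 libraries around it. Rbpj had 27 such regions, but its gene-end rank was the lowest of the 17 and uneven between libraries, at 58.3 ± 38.8. Itgb5, an integrin subunit gene that lies in the Heg1 interval and whose product can bind periostin, had 24 such regions. Pdcd10 had 1, so a high gene-end rank and a peak-rich neighbourhood did not go together there.

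Paralogues of the pericyte genes were open at a gene end in 6 of 8 cases (75%), close to the 66.7% of all genes, and in 7 without replicate 1, against 70.4%. The Notch receptors ranked highest, Notch4 at 99.2 ± 0.90, Notch1 at 98.2 ± 0.63 and Notch2 at 95.3 ± 1.67, beside 93.7 ± 2.39 for Notch3. Notch2 had 34 shared regions around it, Tgfbi, the paralogue of Postn, 28 and Notch1 23, against 21 for Notch3 and 6 for Postn. Rgs4, the neighbour of Rgs5 in its interval, had a gene-end peak in 2 libraries, and Abcc8, the SUR1 subunit gene, in 3. These last 2 genes were named after their values were seen.

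Other genes used to recognise mural cells were open at a gene end in 17 of 18 cases with and without replicate 1, against 66.7% and 70.4% of all genes. The highest gene-end ranks were those of Axl, a receptor tyrosine kinase gene, at 99.3 ± 0.25, and Gucy1b1, the beta subunit of the nitric oxide receptor, at 97.4 ± 0.44. Foxf2, a forkhead factor of pericytes and mesenchyme, came next at 96.1 ± 1.38. The most shared regions lay around Cox4i2, with 23, and around Des and Ednra, with 22 each. At the other extreme Angpt1 ranked at 56.9 ± 11.4 and Trpc6 had 2 shared regions. Angpt1 and Trpc6 were named after their values were seen. Higd1b, the exception, had a gene-end peak in 3 libraries and was named after its values were seen. The median density of these 18 genes was 18.4 peaks per 100 kb, beside 17.1 for the 8 pericyte genes and 10.6 for all genes.

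Whole lung holds many cell types, whose markers were counted in the same way. Beside the 8 of 8 pericyte genes, gene ends were open in every library for 8 of 8 smooth muscle markers, 7 of 8 epithelial, 7 of 8 fibroblast, 6 of 8 endothelial and 5 of 8 blood and immune markers, and 1 of 8 products of other organs. Over all genes the share was 66.7%, so the endothelial count (75%) was near it and the blood and immune count (62.5%) below it. Without replicate 1 the epithelial count was 8 and that of other organs 2, against 70.4% of all genes. Median density was 17.1 peaks per 100 kb for pericyte genes, 22.6 for epithelial, 20.7 for smooth muscle, 20.2 for blood and immune, 16.0 for endothelial and 10.2 for fibroblast markers, and 11.02 for products of other organs. Des stands in both the mural and the smooth muscle list, Pdgfra in those of paralogues and fibroblasts, and the blood marker Csf1r lies inside the Pdgfrb interval. The part of these other cells in the peaks at pericyte genes was not tested.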

How the data were processed

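ATAC-seq was performed on 4 wild-type mouse lung samples at E15.5, and 1 list of narrow peaks per sample was deposited. The submitters' processing notes name MACS3 3.0.1, Bowtie2 2.5.2, bedtools 2.31.0, FastQC 0.12.1, deepTools, SAMtools 1.18, Trim Galore and the build mm10; their roles, order and parameters, and whether duplicates were removed or reads shifted for the Tn5 cut, are not given in the sources used here. The authors deposited for each peak a fold enrichment (a ratio of summit pileup to background), −log10 p and −log10 q values at the summit, a score, and a summit offset. The deposited score was not analysed further. Because each list was called on its own sample, libraries could be compared by overlap.

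Read totals were not used here, so depth was read from the peaks. Below a fold of 15, every peak's value (100%) was a whole number of a library-specific step, within 0.02 steps, which gave background pileups of 2.11, 2.62, 2.59 and 2.21 and median summit pileups of 27, 13, 13 and 11 in replicates 1 to 4; the lowest deposited −log10 q was 1.32 to 1.87. Pileups quoted in the text were recovered this way.

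Only the 19 autosomes and the X and Y chromosomes were used, which left out 1245 to 1814 peaks per library on other contigs. A peak counted for an interval when it overlapped it by 1 base. Peaks that overlap or touch, across lists, were joined into regions, and one that held a peak from each library counted as open in all 4. Gene ends came from RefSeq on GRCm38.p6, the assembly that mm10 represents, and all 8 genes matched by symbol. Promoter sequences and strands came from RefSeq promoters of the same build, where 7 of the 8 genes matched, with 8 starts; Pdgfrb was scored at both annotated ends. Where a start lay inside a peak whose summit was elsewhere, the peak still counted. The observed/expected ratio is the number of CG dinucleotides times the length, divided by the product of the numbers of C and G.

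The members and lists were chosen with earlier results of these data known. Other genes were named when an end or start in an interval carried a region open in all 4 libraries or the strongest region, or, in the lists of mural genes, partners and paralogues, as the 3 of highest gene-end percentile, the 3 with most shared regions, or those with no gene-end peak in any library. With 1 group there was no test between conditions and no p-value; values are counts, means ± SD over 4 libraries, and ranks among 21887 genes. The alternatives were a stricter −log10 q of 5, lists of equal length, a reach of 50 kb, counting by summit, other windows and overlaps, and leaving out each library. The counting code was checked on simulated peaks. Python 3.11.15, numpy 2.4.6, pandas 2.3.3, scipy 1.17.1 and matplotlib 3.10.9 were used.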

Additional observations from a re-analysis of the deposited data

Results flagged for a closer look

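In 47 sets of 4 libraries, 1 library was asked to stand apart from the other 3 by Dixon's criterion for a gap at either extreme, which chance meets in about 1 of 20 sets. It was met in 5, each time by replicate 1. The start peak of Notch3 ranked at 90.1 in replicate 1, the lowest, against 94.6 to 95.2 in the others. Peaks covered 23.8% of the Pdgfrb gene in replicate 1, the lowest, against 50.5% to 54.7%. The peak density of Rgs5 ranked at 47.9 in replicate 1, the highest, against 22.7 to 26.5, and that of Postn at 43.7, the highest, against 21.6 to 25.01. The narrow region inside Cmas, in the interval of Kcnj8 and Abcc9, ranked at 77.1 in replicate 1, the lowest, against 98.4 to 98.9. The list of replicate 1 is the shortest. With lists of equal length the density rank averaged 30.7 ± 11.6 for Rgs5 and 30.3 ± 8.93 for Postn. The full lists gave 29.99 ± 12.1 and 28.4 ± 10.3. The other flagged values were not taken at equal length, and the part of the tissue's state in these 5 values was not tested.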

How the results depend on the processing

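The mean of 306.75 peaks per library in the 7 intervals fell to 156.25 at a −log10 q of 5 or more, to 222 with lists of equal length and to 210.25 with a reach of 50 kb; leaving out each library gave 285 to 339. The 117 regions open in all 4 libraries became 75 at that q and 177 when 3 of 4 libraries sufficed, and 121 to 164 on leaving out each library. Both of the latter settings ask for a peak in fewer libraries, so a higher count is largely built into them. The 8 genes with a gene-end peak became 7 at that q, where Postn was lost (63.7% of all genes). They became 6 when peaks counted by summit, where Cspg4 and Rgs5 were lost (60.5% of all genes). Leaving out a library could not lower the count of 8, so that setting is no check of it. The share of all genes was 67.0% to 70.4% there. The median density rank of 71.1 stayed between 67.4 and 73.04 on leaving out each library, and was 77.1 with only peaks more than 2 kb from gene ends, a setting chosen after seeing the data. Among values of single intervals and genes under all settings, 157 moved by less than the spread between libraries or, for counts of regions, by less than 1.5 times, and 34 moved further. At that q Rgs5 and Postn had 1 shared region each. The cause of these shifts was not tested. No paired analysis was possible because all libraries belong to 1 group. The lowest deposited −log10 q differed between libraries, from 1.32 to 1.87, so peak counts depend on each list's own threshold.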
